A study of Mus musculus with 4 samples.

Results

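The genes described here encode enzymes of haem synthesis in whole mouse heart: Alas1, Alas2, Alad, Uros, Urod, Cpox, Ppox and Fech. They were taken by GENCODE symbol from a table of raw counts, and each of the 8 symbols matched 1 of its 54752 gene identifiers. The pathway was chosen by earlier results of the same contrast, the counts of mutant-labelled against wild-type libraries, so the fold changes below describe it and are not independent evidence about it. The series holds 4 RNA-seq libraries from hearts at postnatal day 14, 2 labelled Carm1 mutant and 2 labelled wild type. Carm1 encodes an arginine methyltransferase that modifies histone H3 and coactivators, and the series title places it in the maturation of the heart. The sources used here do not give the Carm1 allele, any Cre driver or the strain, nor say that each library is a different animal, and the spread behind each p-value may therefore be technical.

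Haem is an iron-porphyrin made in steps that begin and end in the mitochondrion. 5-aminolevulinate synthase (ALAS) joins glycine to succinyl-CoA in the matrix, cytosolic enzymes assemble and trim the porphyrin ring, and mitochondrial enzymes oxidise it and insert iron. In most tissues the first step is made by ALAS1 and sets the rate of the pathway, while ALAS2 is the isozyme of developing red cells. In heart muscle haem is the prosthetic group of myoglobin and of the respiratory cytochromes. The deaminase step between Alad and Uros is not analysed here.

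On GRCm38, GENCODE M21 gives the spans of the whole genes, exons and introns. It puts Alas1 (ENSMUSG00000032786) at chr9:106233455-106248654 on the minus strand and Alas2 (ENSMUSG00000025270) at chrX:150547375-150570638 on the plus strand. Next come Alad (ENSMUSG00000028393) at chr4:62509169-62519918 on the minus strand and Uros (ENSMUSG00000030979) at chr7:133686243-133710072 on the minus strand. The later enzymes are Urod (ENSMUSG00000028684) at chr4:116989965-116994413 on the minus strand and Cpox (ENSMUSG00000022742) at chr16:58670292-58717636 on the plus strand. Ppox (ENSMUSG00000062729) lies at chr1:171275990-171281186 on the minus strand.

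The windows upstream of the start sites of the 2 ALAS genes are shown because these isozymes answer to different factors and had different fold changes. Both are from RefSeq on GRCm38.p6 and hold the 250 bases before an annotated start. RefSeq gives Alas1 another start as well, and the Alas1 window shown lies inside the gene span that GENCODE gives. Nuclear respiratory factor 1 (NRF1) is known to act on the Alas1 promoter of the rat. GATA1 is known to act on Alas2 in red cell precursors. Capitals mark the NRF1 core, a palindrome, in the Alas1 window (chr9:106247731-106247980, minus strand) and the reverse complement of the GATA motif AGATAA in the Alas2 window (chrX:150547167-150547416, plus strand).
Alas1: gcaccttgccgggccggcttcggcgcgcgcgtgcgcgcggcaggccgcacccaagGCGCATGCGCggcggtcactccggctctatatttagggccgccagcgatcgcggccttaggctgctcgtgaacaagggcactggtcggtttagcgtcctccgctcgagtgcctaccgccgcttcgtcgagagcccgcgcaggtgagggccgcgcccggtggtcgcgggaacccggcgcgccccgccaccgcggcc
Alas2: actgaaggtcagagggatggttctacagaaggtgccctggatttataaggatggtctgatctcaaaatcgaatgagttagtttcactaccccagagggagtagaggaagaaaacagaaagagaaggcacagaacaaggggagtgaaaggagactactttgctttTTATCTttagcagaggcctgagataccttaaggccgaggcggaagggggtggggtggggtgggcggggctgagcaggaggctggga
The NRF1 core begins 195 bases before this Alas1 start and at base 30 after the other Alas1 start, so it is upstream of the one and downstream of the other, and the GATA match 86 bases before the Alas2 start. Motifs were searched on both strands in windows of 300 bases, from 250 before to 50 after each start, and were chosen with the values known; NRF1 and GATA matches overlapped no other match in these windows. The NRF1 core was in 0.971% of all 32851 windows, and among the 7 members with a window in Alas1 alone. AGATAA was in 11.2% of all windows and in those of Alas2 and Cpox. The E-box CACGTG was in 7.15% of windows and in those of Alad, Uros and Urod, and TCAAGGTCA, a sequence bound by oestrogen-related receptors, was in 0.423% and in that of no member. A match is a run of letters and no evidence of binding.

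The libraries differed in ways that touch the values below. Totals were 22217442 and 11677604 counts for mutant replicates 1 and 2, against 21719161 and 20778420 for wild type replicates 1 and 2. Levels are given as CPM, counts per library size corrected by TMM factors from 0.806 to 1.16. Carm1 itself had 35.8 and 31.8 CPM in mutant-labelled libraries and 45.9 and 52.3 CPM in wild type. It did not pass the test (log2 fold change −0.54, SE 0.19, edgeR FDR 0.114). With library totals in place of TMM its log2 fold change was −0.16 (edgeR FDR 0.626). It was called lower in 3 of the 16 alternative settings described below. A count over the whole gene cannot show a partial deletion. Xist had 8116 and 3921 counts in mutant-labelled libraries, against 12 and 15 in wild type, and the 4 Y-linked genes had at most 5 counts each in any mutant-labelled library, so genotype and sex cannot be told apart in any comparison, including that of the X-linked Alas2. In wild type replicate 1 genes that stood above their average over the libraries tended to be short (Spearman's rho with exonic length −0.30 across genes), against 0.18, −0.015 and 0.25 in mutant replicates 1 and 2 and wild type replicate 2; genes are not independent replicates. Marker lists checked the tissue: all 8 cardiomyocyte markers were expressed, and their summed level was 37814 and 40839 CPM in mutant-labelled hearts and 74342 and 64626 CPM in wild type. In bulk RNA, fewer cells of a type and less RNA per cell cannot be told apart.

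Alas1, the gene of the rate-limiting step in most tissues, was lower in both mutant-labelled hearts. It had 116 and 129.7 CPM in mutant replicates 1 and 2, from 2910 and 1762 counts, against 551 and 479 CPM in wild type replicates 1 and 2, from 9630 and 9373 counts. Both mutant-labelled libraries were low, both wild-type libraries were high, and the groups lay far apart relative to the spread within either. The log2 fold change was −2.07 (SE 0.22, 95% interval −2.57 to −1.56, edgeR quasi-likelihood FDR 0.00624), which is 23.9% of the wild-type level. By p-value it ranked 34 of 15283 genes tested. It passed in all 17 alternative settings run, with log2 fold changes from −2.20 to −1.67. Of these settings 1 only raised the FDR threshold to 0.10, which a gene called at 0.05 cannot fail.

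Fech encodes ferrochelatase, which inserts iron into protoporphyrin in the last step of the pathway. It had 52.6 and 54.0 CPM in mutant-labelled hearts, against 123 and 96.9 CPM in wild type. The mutant-labelled pair was nearly level, the wild-type pair was spread, and the groups did not overlap. Fech fell by 1.05 on the log2 scale (SE 0.20, edgeR FDR 0.0272). The call was lost with scaling by library totals (log2 fold change −0.64, edgeR FDR 0.0680), without mutant replicate 1 (−1.03, edgeR FDR 0.262) and without mutant replicate 2 (−1.07, edgeR FDR 0.228). The gene (ENSMUSG00000024588) spans chr18:64452914-64490251 on the minus strand. Its exons resemble parts of 16 other gene models at 91.3% to 95.2% identity. The likeness covers at least 50% of a single transcript of each, not of the whole gene. The counts of Fech are uncertain to the extent that reads were shared.

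No other member passed. Of the 8 genes, 2 were called lower and 0 higher by edgeR at an FDR of 0.05. Of all tested genes 7.37% were called, 4.58% lower and 2.79% higher. Without adjustment 5 members lay below the 0.05 level on the lower side and 1, Ppox, on the higher side. Such values were common: 4036 of the 15283 genes tested had an unadjusted edgeR p of 0.0446 or less. Members had been chosen with this contrast known, so nothing is read from the count of members. The number of lower calls was 1 without mutant replicate 1, 1 without mutant replicate 2, 3 without wild type replicate 1 and 5 without wild type replicate 2, which also gave 1 higher call, while DESeq2's Wald test and limma-voom gave 0 higher. In 6 of the 8 genes the groups did not overlap, beside 59.0% of all genes tested. The median log2 fold change was −0.60 over the 8 genes and 0.02 over all tested genes, and 7 of the 8 values were below 0, beside 48.4% of all genes.

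**Figure D1:**
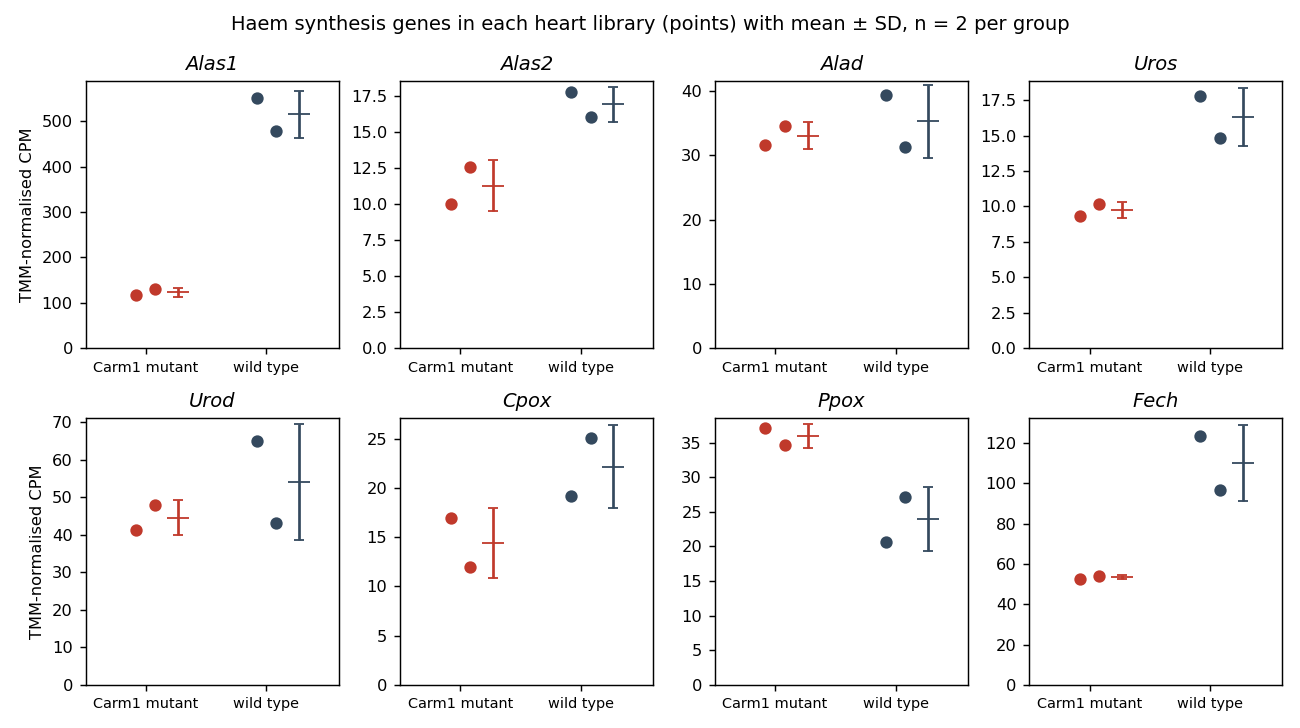
Abundance of the 8 genes in TMM-normalised CPM (vertical axes, each from 0), with the 2 Carm1 mutant libraries in red on the left and the 2 wild-type libraries in dark blue on the right of each panel; bars give the mean ± SD. Alas1 and Fech are low in both mutant-labelled libraries, Ppox is high in both, and the groups overlap for Alad and Urod.

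Alas2, the red cell isozyme on the X chromosome, had 10.01 and 12.5 CPM in mutant-labelled hearts, against 17.7 and 16.0 CPM in wild type. The groups did not overlap, but the difference did not pass (log2 fold change −0.59, SE 0.21, edgeR FDR 0.118); it passed without wild type replicate 2 (−0.70, edgeR FDR 0.0192). Of its 2403 exonic bases 311 overlap Apex2 on the opposite strand, and reads of the pair cannot be told apart where the counting strand is unknown. Apex2 had 5.14 and 5.38 CPM in mutant-labelled hearts and 4.29 and 5.01 CPM in wild type.

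None of the cytosolic enzymes passed. Alad, which joins aminolevulinate molecules into porphobilinogen, had 31.6 and 34.5 CPM in mutant-labelled hearts, against 39.3 and 31.3 CPM in wild type, so its groups overlapped (log2 fold change −0.10, 95% interval −0.55 to 0.36, edgeR FDR 0.790). Urod, which removes carboxyl groups from uroporphyrinogen, had 41.2 and 47.8 CPM in mutant-labelled hearts, against 65.03 and 43.1 CPM in wild type and overlapped as well (−0.28, 95% interval −0.83 to 0.27, edgeR FDR 0.479). Wild type replicate 1 was the highest library for both genes, and without it the log2 fold changes were 0.064 for Alad and 0.028 for Urod. With library totals they were 0.31 and 0.13, which lie 0.10 and 0.28 below the median of all genes under that scaling (differences of −0.10 and −0.28). Without wild type replicate 2, Urod was called lower (−0.59, edgeR FDR 0.0131). Uros, which closes the ring, had 9.33 and 10.2 CPM in mutant-labelled hearts, against 17.8 and 14.9 CPM in wild type. Its groups were apart, and it lay close to the threshold without passing (log2 fold change −0.75, SE 0.21, edgeR FDR 0.0670); it passed without wild type replicate 2 (−0.91, edgeR FDR 0.00397), with no filter on low counts (−0.76, edgeR FDR 0.0303) and with a correction for transcript length (−0.72, edgeR FDR 0.0281).

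The enzymes of the oxidation steps before iron insertion had values of opposite sign, and neither passed. Cpox, coproporphyrinogen oxidase, had 16.9 and 11.9 CPM in mutant-labelled hearts, against 19.2 and 25.1 CPM in wild type (log2 fold change −0.61, SE 0.24, edgeR FDR 0.150). It passed without wild type replicate 1 (−0.80, edgeR FDR 0.0274) and with a correction for transcript length (−0.66, edgeR FDR 0.0493). Ppox, protoporphyrinogen oxidase, was the member with a positive value: it had 37.2 and 34.7 CPM in mutant-labelled hearts, against 20.6 and 27.2 CPM in wild type. Both mutant-labelled libraries lay above both wild-type libraries, and the log2 fold change of 0.59 (SE 0.20) did not pass (edgeR FDR 0.113). It passed without wild type replicate 2 (0.76, edgeR FDR 0.00460) and with a correction for transcript length (0.58, edgeR FDR 0.0499). Of the 4515 exonic bases of Ppox 791 overlap B4galt3 on the other strand, which had 16.4 and 19.4 CPM in mutant-labelled hearts and 12.8 and 12.97 CPM in wild type, so the value of Ppox is uncertain.

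**Figure D2:**
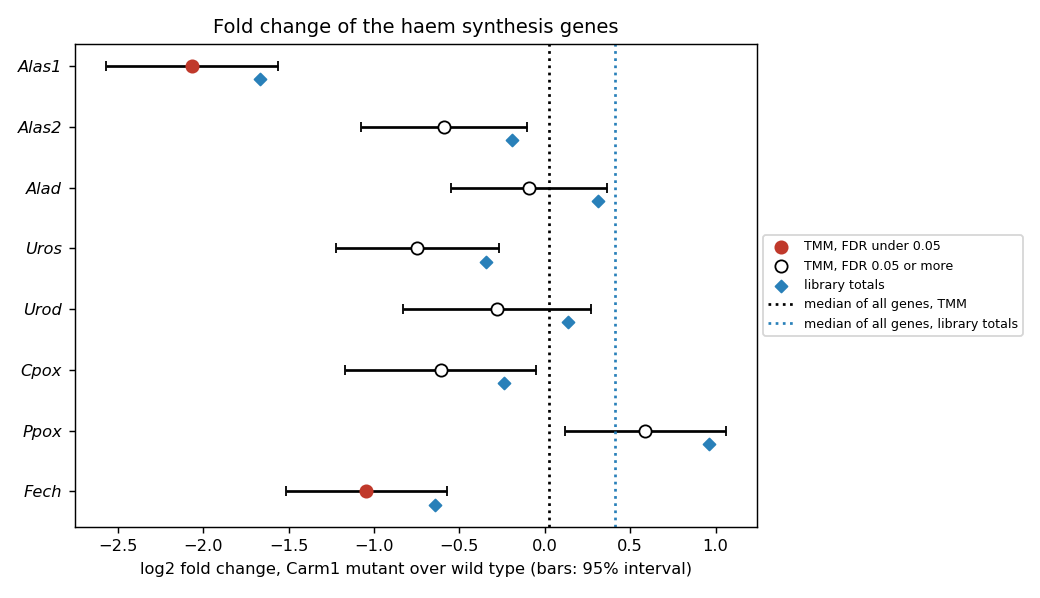
Log2 fold change of Carm1 mutant over wild type (horizontal axis) for each gene in pathway order from top to bottom, with 95% intervals; filled points passed the edgeR FDR of 0.05, and blue diamonds are the values with library totals in place of TMM. Alas1 lies at −2.07 and Fech at −1.05, Ppox is the one value above 0 with TMM, and the dotted lines at 0.02 and 0.41 are the medians of all tested genes under the 2 scalings.

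Library totals moved the median of all tested genes by 0.39 on the log2 scale, to 0.41, and moved the 8 genes with it. Alas1 was at −1.67 and Ppox at 0.96 (edgeR FDR 0.0525) with library totals. Less that median, Alas1 was at −2.08, Fech at −1.05 and Ppox at 0.55. Ratios of members within a library do not depend on scaling. There were 2.21 and 2.40 Alas1 counts per Fech count in mutant-labelled libraries, against 4.47 and 4.94 in wild type. Per Alad count there were 3.67 and 3.76 Alas1 counts in mutant-labelled libraries, against 13.997 and 15.3 in wild type. Ppox went the other way, with 0.707 and 0.643 counts per Fech count in mutant-labelled libraries and 0.168 and 0.280 in wild type. Alas1 thus made up 36.9% and 38.7% of the counts of the 8 genes in mutant-labelled hearts and 64.5% and 65.3% in wild type. None of these ratios overlapped between groups. In a design of 2 against 2 the smallest p of an exact two-sided permutation test is 0.333, which each ratio gave (0.367 after Benjamini-Hochberg adjustment over 11 ratios and sums computed).

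Levels of different genes were compared per kilobase of exon. In wild type Alas1 stood alone at the top, with 83.4 ± 8.3 CPM per kilobase (SD, n = 2). In mutant-labelled hearts it had 19.9 ± 1.6, just above Alad at 17.7 ± 1.1 and Urod at 17.2 ± 1.8, and Alad and Urod could not be ordered within their spread in either group. The remaining genes lay lower. In mutant-labelled hearts Ppox followed at 7.96 ± 0.39, then Alas2 at 4.69 ± 0.74, Fech at 3.85 ± 0.07, Uros at 2.73 ± 0.16 and Cpox at 2.16 ± 0.53. In wild type the order was Urod 20.9 ± 6.0, Alad 18.9 ± 3.1, Fech 7.95 ± 1.35, Alas2 7.03 ± 0.50, Ppox 5.30 ± 1.02, Uros 4.57 ± 0.58 and Cpox 3.32 ± 0.63 CPM per kilobase, where neighbours from Urod to Alad, from Fech to Alas2 and from Ppox to Uros overlapped. These places depend on the length used, because Fech has 13838 exonic but 1644 coding bases. Per coding kilobase Alas1 remained first in both groups, but in mutant-labelled hearts it was no longer close to Urod and Alad. It had 61.4 ± 4.8 CPM per coding kilobase there, against 40.4 ± 4.3 for Urod and 33.4 ± 2.1 for Alad. Fech was at rank 4 in mutant-labelled hearts and at rank 2 in wild type, and Alas2 was at rank 8 in both.

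**Figure D3:**
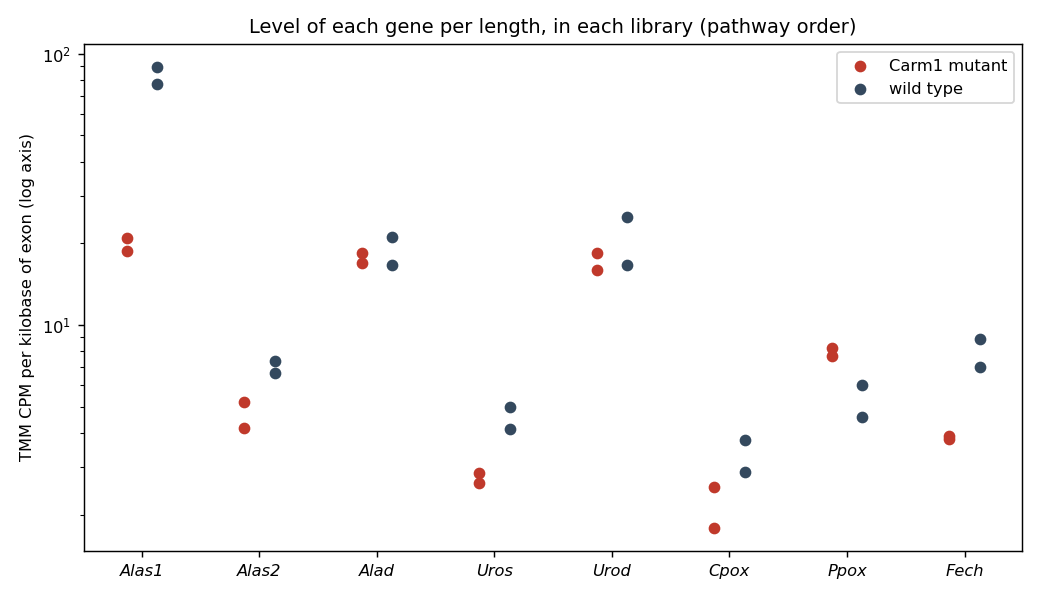
Level of each gene in TMM CPM per kilobase of exon (vertical log axis), in pathway order, with the 2 Carm1 mutant libraries in red to the left of the 2 wild-type libraries in dark blue. Alas1 stands above all other genes in wild type and, per kilobase of exon, is close to Alad and Urod in the mutant-labelled hearts.

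Because Alas2 marks red cell precursors, its counts were set beside those of Alas1 and of adult globins. Alas2 made up 7.94% of Alas1 plus Alas2 counts in mutant replicate 1 (exact Clopper-Pearson 95% interval 7.02% to 8.94%) and 8.80% in mutant replicate 2 (7.57% to 10.2%), against 3.12% in wild type replicate 1 (2.79% to 3.48%) and 3.24% in wild type replicate 2 (2.90% to 3.61%). The intervals cover counting error only. The share was higher in both mutant-labelled libraries, in which Alas1 and Alas2 were both lower and Alas1 had the larger fold change. Hba-a1, Hba-a2, Hbb-bs and Hbb-bt together had 529 and 850.2 CPM in mutant-labelled hearts and 693 and 490 CPM in wild type, and these values overlapped. Alas2 had 18.9 and 14.7 counts per 1000 globin counts in mutant-labelled hearts, against 25.6 and 32.8 in wild type (exact permutation p = 0.333). The globin level was highest in mutant replicate 2, and the Alas2 level in wild type replicate 1. Globin copies are near-identical, so how reads were split among them is uncertain, while their sum is less so. The table holds 18 red cell markers, of which 7 could be tested and 0 passed the edgeR FDR of 0.05 (0 at an unadjusted p under 0.05). Precursor genes were at or near 0: Rhag had no count in any library and Gata1 had 1 count over the 4 libraries. Both were named after their values were seen. Of the 18 genes, 10 had at most 5 counts in every library.

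Alas1 was also lower relative to cardiomyocyte transcripts. Per 1000 counts of the 8 cardiomyocyte markers, a measure chosen after the values were seen, Alas1 had 3.07 and 3.18 counts in mutant-labelled hearts and 7.41 and 7.41 in wild type. Fech had 1.39 and 1.32 per 1000, against 1.66 and 1.499 in wild type. On this scale the mean in mutant-labelled hearts was 42.2% of wild type for Alas1 and 85.9% for Fech, with no overlap of groups for either (exact permutation p = 0.333 each). Among the cardiomyocyte markers Pln was called lower and Nppa higher, and 6 did not pass. These calls depended on the settings: of 16 alternatives, Pln passed in 10 and Nppa in 13. Their log2 fold changes ranged from −1.01 to −0.50 and from 0.71 to 1.47. With library totals Pln was at −0.50 (edgeR FDR 0.101). The marker lists of other cell types held 0 calls by edgeR. Genes tested and, of these, those under an unadjusted p of 0.05 were 3 and 1 for platelets, 8 and 1 for macrophages and 6 and 4 for fibroblasts. They were 6 and 1 for endothelium, 2 and 1 for adipocytes and 2 and 0 for hepatocytes. Of all 15283 genes tested, 4036 had an unadjusted edgeR p of 0.0446 or less. The fibroblast markers had a median log2 fold change of 0.65, with summed levels of 3510.0 and 3728 CPM in mutant-labelled hearts and 2050 and 2330 CPM in wild type. The part of cell composition in the Alas1 and Fech differences was not tested.

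Genes around the pathway were described by 5 lists with 67 tested members, of which 13 were called lower, 1 higher and 53 not, beside 4.58% of all tested genes called lower and 2.79% higher. These lists too were chosen with results of this contrast known, and nothing is read from their counts. Their calls depended on the libraries as well: the lower calls numbered 3 without mutant replicate 1, 1 without mutant replicate 2, 23 without wild type replicate 1, 34 without wild type replicate 2 and 3 with library totals. Of the 14 called genes, all kept their sign in those settings, and 4 and 2 kept the call without mutant replicates 1 and 2. Tfrc and Blvrb passed in all 16 alternatives to the settings used, the threshold apart.

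Among regulators of ALAS, Clpx, Ppargc1a and Nr1d1 were called lower. Of 12 listed regulators 3 were called lower and 9 were not called, with a median log2 fold change of −0.34. Clpx, the mitochondrial unfoldase that activates ALAS and is also known to turn ALAS1 over in human cells, had 26.2 and 24.7 CPM in mutant-labelled hearts, against 71.4 and 66.1 CPM in wild type (log2 fold change −1.43, SE 0.18, edgeR FDR 0.00988; 0.0567 without mutant replicate 2). Ppargc1a, the coactivator PGC-1α that induces Alas1 in fasted mouse liver, had 79.9 and 40.4 CPM, against 141 and 244 CPM in wild type (−1.67, SE 0.37, edgeR FDR 0.0390; 0.159 without mutant replicate 2 and 0.0744 with library totals). The groups were apart, although each pair was widely spread. Nr1d1, a clock repressor that binds haem as a ligand, fell by 1.05 on the log2 scale (SE 0.21, edgeR FDR 0.0300), a call lost without either mutant-labelled library (edgeR FDR 0.373 and 0.107) and with library totals (0.111). Nrf1, which encodes the factor whose core motif is in the Alas1 window, had 15.2 and 11.3 CPM in mutant-labelled hearts and 12.2 and 13.3 CPM in wild type, with overlapping groups (log2 fold change 0.06, edgeR FDR 0.874); it was named after its values were seen.

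Of the genes of precursor supply, those called were 4 of succinyl-CoA metabolism and 1 transporter, all lower. Of 16 genes for substrates, iron and porphyrin transport, 5 were called lower and 11 were not called, with a median log2 fold change of −0.41. Sucla2, a subunit of succinyl-CoA ligase, had 170.0 and 185 CPM in mutant-labelled hearts, against 496 and 367 CPM in wild type (log2 fold change −1.28, SE 0.23, edgeR FDR 0.0236). Abcb10, a mitochondrial transporter needed for haem synthesis in red cells, had 15.1 and 15.2 CPM against 30.2 and 28.1 CPM in wild type (−0.94, SE 0.18, edgeR FDR 0.0272). Suclg2 (−0.96) and Dlst (−0.98), of the ligase and of 2-oxoglutarate dehydrogenase, were called too, and Ogdh (−1.01) was the fifth. Ogdh was named after its values were seen. Without mutant replicate 1 or without mutant replicate 2 no gene of the list was called, and with library totals the call of Sucla2 alone remained (edgeR FDR 0.0398). Slc25a38, the mitochondrial glycine carrier, had 12.9 and 13.5 CPM in mutant-labelled hearts, against 14.5 and 13.1 CPM in wild type (−0.06, edgeR FDR 0.865); it was named after its values were seen.

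Among genes of haem use, 4 of 16 genes were called lower and 12 were not called, with a median log2 fold change of −0.71. Hccs, which attaches haem to cytochrome c and lies on the X chromosome, had 21.1 and 20.0 CPM in mutant-labelled hearts, against 47.4 and 44.5 CPM in wild type (log2 fold change −1.16, SE 0.18, edgeR FDR 0.0167). Cat, the haem enzyme catalase, fell by 1.03 (edgeR FDR 0.0272), Cox15, of haem A synthesis, by 0.84 (edgeR FDR 0.0353) and Sdhd, a membrane anchor of complex II, by 1.30 (edgeR FDR 0.0364) on the log2 scale. None of these calls held without mutant replicate 1, without mutant replicate 2 or with library totals.

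Of 11 tested genes of haem breakdown and transfer, 1 was called higher, 10 were not called and the median log2 fold change was 0.07. Blvrb, a biliverdin reductase, had 51.8 and 56.8 CPM in mutant-labelled hearts, against 25.2 and 18.6 CPM in wild type (log2 fold change 1.31, SE 0.21, edgeR FDR 0.0187). Both mutant-labelled libraries had more than either wild-type library. Hmox1, the inducible haem oxygenase, did not pass (0.50, edgeR FDR 0.133), and neither did Hmox2, the constitutive one (−0.73, edgeR FDR 0.0655); both were named after their values were seen. Of 12 genes of iron handling 1 was called lower and 11 were not called, with a median log2 fold change of −0.44. That gene was Tfrc, the transferrin receptor that brings iron into the cell, with 79.8 and 87.5 CPM in mutant-labelled hearts and 300.1 and 269 CPM in wild type (log2 fold change −1.77, SE 0.21, edgeR FDR 0.00794).

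**Figure D4:**
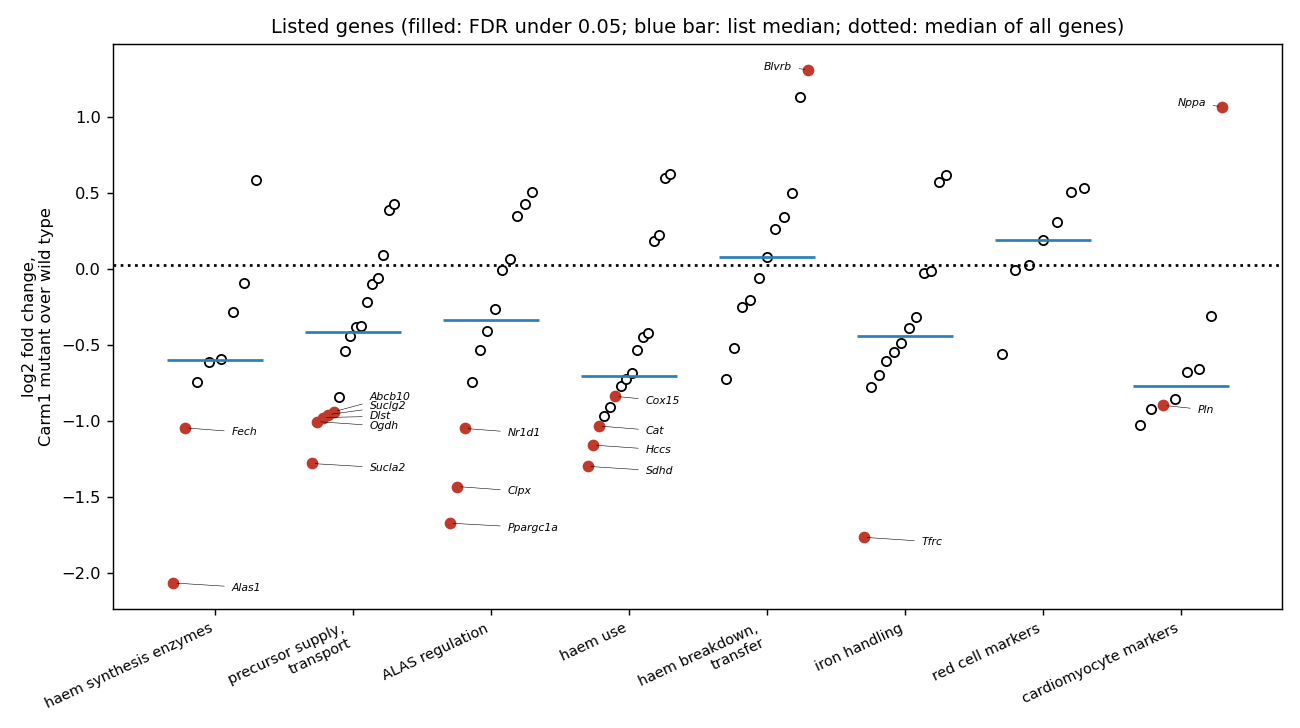
Log2 fold change of Carm1 mutant over wild type (vertical axis) for each tested gene of the haem synthesis list, the 5 lists around it and 2 marker lists; filled red points passed the edgeR FDR of 0.05, blue bars are list medians and the dotted line at 0.02 is the median of all tested genes. Alas1, Tfrc and Ppargc1a have the lowest values shown, Blvrb and Nppa were called higher, and no red cell marker was called.

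By profile over the 4 libraries, the 3 genes nearest to Alas1 among 12163 candidates were Taco1, Nmnat3 and Fbxo44, at distances of 0.09, 0.18 and 0.25 on the log2 scale. Taco1, a translational activator of a mitochondrially encoded cytochrome oxidase subunit, had 7.06 and 7.58 CPM in mutant-labelled hearts and 34.2 and 27.5 CPM in wild type. Nmnat3, an enzyme of NAD synthesis, had 1.95 and 1.99 CPM against 8.24 and 8.22 CPM in wild type. For Alas2 the nearest were Oard1, Hsp90b1 and Pdxk, at 0.05, 0.06 and 0.06. Pdxk makes pyridoxal phosphate, the cofactor of ALAS, and had 5.22 and 6.55 CPM in mutant-labelled hearts and 8.98 and 8.02 CPM in wild type. With 4 libraries in 2 groups such likeness is a description of these profiles.

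**Figure D5:**
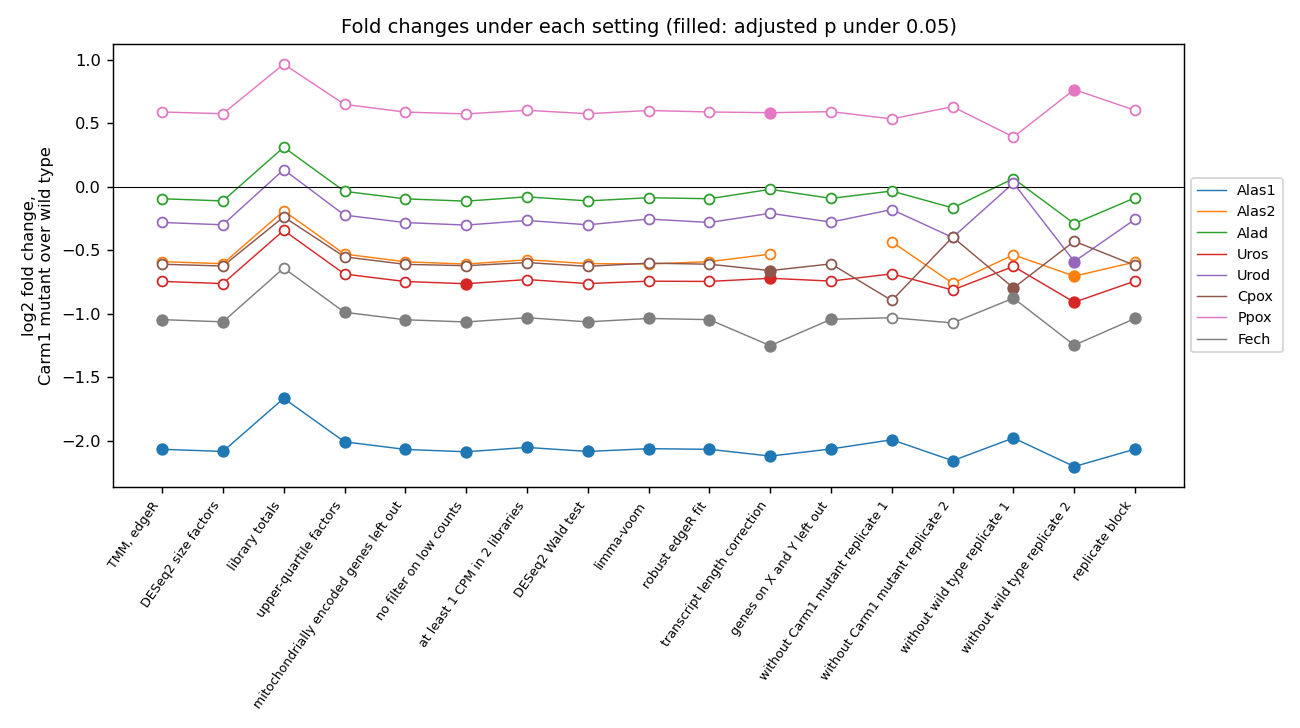
Log2 fold change of Carm1 mutant over wild type (vertical axis) for each of the 8 genes under TMM with edgeR and each alternative setting (horizontal axis); filled points had an adjusted p under 0.05. Alas1 is filled throughout, Fech is open with library totals and without either mutant-labelled library, and Alad and Urod lie above 0 without wild type replicate 1 and with library totals, a scaling under which the median of all genes is 0.41.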

How the data were processed

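RNA-seq libraries of heart RNA were prepared by BGI, per the labels' protocols. The submitters' processing notes name mm10, HISAT2 and FastQC. Their versions, the counting program, its annotation, strand setting and treatment of shared reads are not stated in the labels. The values are raw counts per Ensembl gene as the authors deposited them. GENCODE M21 (GRCm38) named 54723 of the 54752 identifiers and gave coordinates and lengths. Columns were matched by sample title. Replicates differed beyond counting error (chi-square per degree of freedom 11.5 for the mutant pair and 51.1 for the wild-type pair), more than 1 library deposited again would show, so each was counted as a sample; this does not tell animals from preparations of 1 animal.

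filterByExpr kept 15283 genes. Libraries were scaled by TMM and fitted on the whole table with the edgeR 4.0.16 (R 4.3.3) quasi-likelihood test with genotype alone, adjusted by Benjamini-Hochberg (FDR) at 0.05. A standard error is the log2 fold change divided by the square root of F. A floor of 3 counts was 0.135 to 0.257 CPM. Alternatives used DESeq2 1.42.0, limma 3.58.1, other scalings and filters, a lowess correction for exonic length, a replicate block and leaving out each library. The steps were tested on simulated data, with 50 genes at each true log2 fold change. Calls recovered 36% of genes at 1, 62% at −1 and 100% at 2 and at −2. A gene that did not pass may therefore still differ. The members and all lists were chosen with earlier results of these data known. Named were all members, up to 4 called genes per list by p, and the 3 nearest profiles. Profiles used log2 CPM with a prior count of 2 and genes with a mean of at least 1 CPM. Carm1, the globins and the genes overlapping Alas2 and Ppox were named too, and the text marks other genes named outside this rule. Similar gene models were sought with BLAST at 90% identity.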

Additional observations from a re-analysis of the deposited data

How the results depend on the processing

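Of the 17 alternatives, 1 only raised the threshold to 0.10, which a gene called at 0.05 cannot fail. Alas1 kept its direction and call in all 17 (log2 fold change −2.20 to −1.98 over the fits that leave out a library). Fech kept them in 14, with −0.64 under library totals (edgeR adjusted p 0.0680) and −1.25 to −0.88 over the fits without a library. A group with 1 library left was assumed to vary like the other. Ranges over those fits were −0.76 to −0.43 for Alas2, −0.29 to 0.06 for Alad, −0.91 to −0.63 for Uros, −0.59 to 0.03 for Urod, −0.90 to −0.40 for Cpox and 0.39 to 0.76 for Ppox. Library totals gave 0.31 for Alad and 0.13 for Urod, but they moved all genes alike (median 0.41), and less that median the values were −0.10 and −0.28; leaving out wild type replicate 1 gave 0.064 and 0.028. Uros passed with no filter (−0.76), with the length correction (−0.72) and at an adjusted p of 0.10 (−0.75), and the length correction added Cpox (−0.66) and Ppox (0.58). It gave 4 lower and 1 higher call among the 8 genes, library totals gave 1 lower, and leaving out a library gave 1 to 5 lower and 0 to 1 higher. The median of the 8 genes was −0.21 with library totals, −0.54 with upper-quartile factors and −0.65 to −0.56 without a library. Over all genes the main 426 higher and 700 lower calls became 1189 and 206 with library totals, 1169 and 1461 with no filter, 1101 and 1558 with the length correction, 1077 and 1411 at 0.10, and 221 to 2553 and 156 to 3126 without a library; DESeq2's Wald test gave 1114 lower. Over the 5 lists around the pathway, higher and lower calls were 7 and 3 with library totals, 2 and 21 with no filter and with DESeq2's Wald test, 5 and 24 with the length correction, 3 and 21 at 0.10, and 1 to 9 and 1 to 34 without a library. The cause of these shifts was not tested. The Alas2 share of ALAS counts was 4.76 to 5.62 percentage points higher, and Alas2 per 1000 globin counts differed by −15.9 to −8.77, without a library.

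The replicate numbers are not said to pair libraries, and the deviations of same-numbered libraries correlated by −0.25 across genes. A replicate block left the calls of Alas1 (adjusted p 5.5e-05) and Fech (0.0278) in place, changed no call among the 8 genes, and gave 2 higher and 10 lower calls in the lists around the pathway, where Ogdh, Dlst and Cox15 lost theirs. With genes on X and Y left out, Alas2 has no value.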
